A study of Mus musculus with 10 samples.

Results

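The genes described here are 10 that encode titin and proteins of the Z-disc, the M-band and the thick filament next to it: Ttn, Mybpc3, Myom1, Myom2, Actn2, Ldb3, Tcap, Csrp3, Nebl and Itgb1bp2. They were taken by name, through every probe set whose array annotation gives exactly 1 gene symbol. This found all 10 genes, among 18193 measured, and 22 of the 34945 probe sets with a single symbol. Whole hearts of female mouse embryos at 13.5 dpc (days post coitum) were measured on Affymetrix expression arrays, with 5 pools of heterozygous Hccs knockout hearts and 5 pools of littermate control hearts. Each pool held 4 to 5 hearts of 1 genotype and went onto its own array.

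The knockout is conditional to the heart, and the driver of the recombinase is not named in the labels. Hccs encodes holocytochrome c synthase, the mitochondrial enzyme that attaches haem to cytochrome c, and it lies on the X chromosome. A heterozygous female heart is therefore a mosaic of cells that use the intact copy and cells that use the deleted copy, and the submitters describe hearts in which healthy cardiomyocytes divide more while deficient cells are still present. In pooled tissue, fewer cells of a type and less RNA per cell cannot be told apart. The genotype beyond the label "control" is not given for the control embryos.

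The sarcomere is the contractile unit of striated muscle. Actin filaments are anchored at its borders, the Z-discs, and myosin filaments are held in register at its middle, the M-band. Titin is a giant protein that reaches from the Z-disc to the M-band and acts as a spring and a scaffold. Several of the genes described here, among them Ttn, Mybpc3, Actn2, Ldb3, Tcap and Csrp3, are known in people for variants that are linked to cardiomyopathy.

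Of the 10 genes, 2 fell in the knockout hearts and none rose at an adjusted p under 0.05 (limma, Benjamini-Hochberg over 18193 genes). Those were Myom1, an M-band cross-linker, and Itgb1bp2, which encodes the chaperone-like protein melusin. Over all genes, 0.945% were called lower and 1.63% higher, 2.58% in either direction. At an unadjusted limma p under 0.05, 6 members were lower and 1 was higher, against 7.48% and 13.2% of all genes. The log2 change was negative for 9 of the 10 members, beside 7184 of all 18193 genes. The median was -0.34 for the members and 0.025 over all genes. The members were chosen with earlier results of these data known, so the shares of all genes beside them are a description and not a test. Pools of the genotypes did not overlap for 3 members, all lower in the knockout, namely Myom1, Actn2 and Itgb1bp2, where 1.92% of all genes were apart in that direction and 3.86% in the other. The deposited signals were made with RMA, with options not given here, and changes are read relative to the other transcripts on the array.

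**Figure D1:**
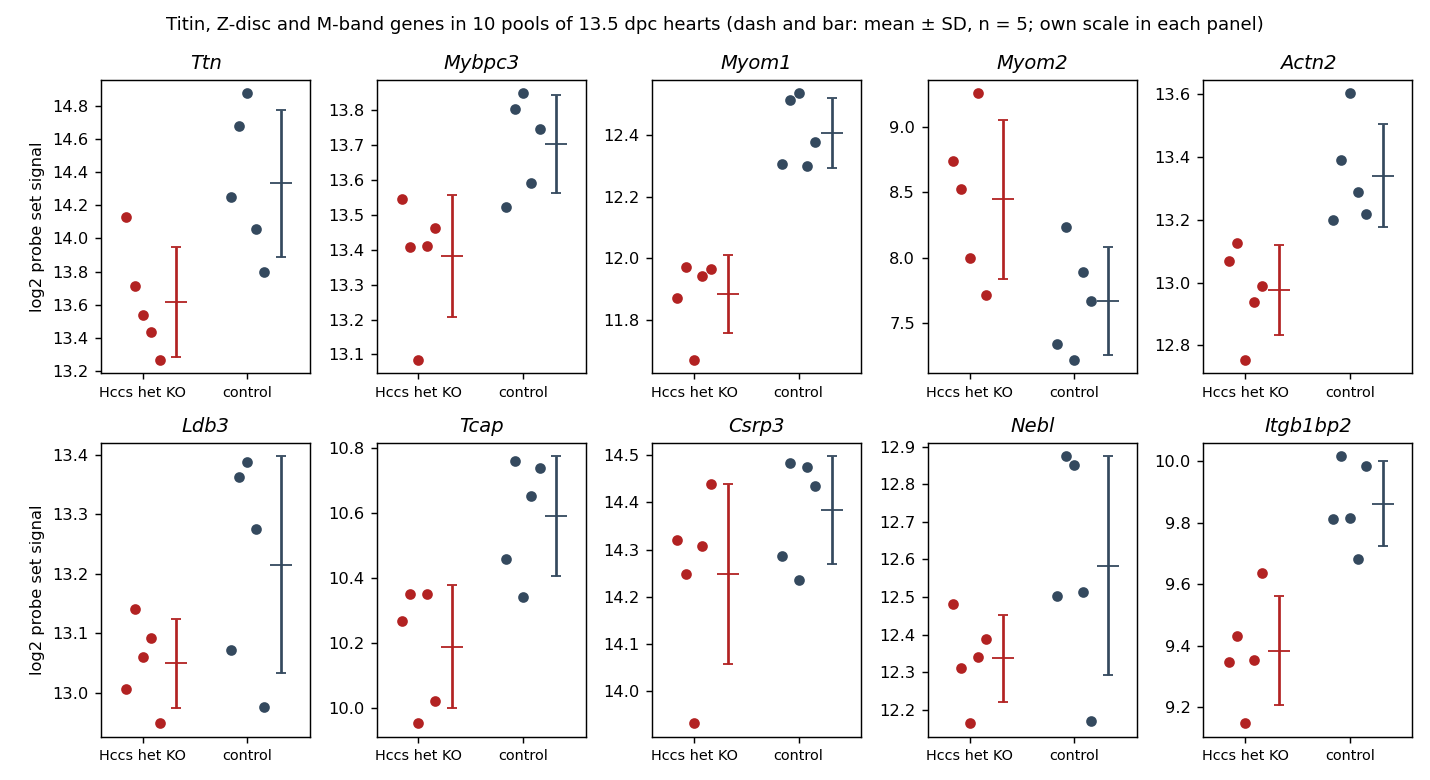
Log2 signal of the main probe set of each of the 10 genes in the 5 Hccs het KO pools (left) and the 5 control pools (right), 1 point per pool, with group means as lines. The points of the genotypes are apart for Myom1, Actn2 and Itgb1bp2, and Myom2 is the gene with a positive change, of 0.78.

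Promoter sequences are shown for 4 of the genes because they hold motifs of transcription factors known from cardiac muscle. Windows of 300 bases, from 250 before to 50 after a listed transcript start, were taken from RefSeq on build GRCm38.p6, which had 12 windows for 7 of the genes. Capitals mark matches on either strand to 4 motifs, the MEF2 site, the CArG box, the NKX site AAGTG and the GATA site AGATAA. The Ttn window, chr2:76982498-76982797 on the minus strand, and the Mybpc3 window, chr2:91117894-91118193 on the plus strand, each hold a MEF2 site. The Mybpc3 window also holds an NKX site. The Myom1 window, chr17:71019307-71019606 on the plus strand, belongs to a start inside the gene and holds a CArG box and a GATA site. The Ldb3 window, chr14:34588632-34588931 on the minus strand, holds a CArG box.
Ttn: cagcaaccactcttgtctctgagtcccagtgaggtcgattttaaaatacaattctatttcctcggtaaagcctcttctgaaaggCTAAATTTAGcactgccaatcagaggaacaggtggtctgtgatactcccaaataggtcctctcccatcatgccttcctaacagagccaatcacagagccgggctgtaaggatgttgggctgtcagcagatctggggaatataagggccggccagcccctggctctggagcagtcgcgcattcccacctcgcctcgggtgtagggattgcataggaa
Mybpc3: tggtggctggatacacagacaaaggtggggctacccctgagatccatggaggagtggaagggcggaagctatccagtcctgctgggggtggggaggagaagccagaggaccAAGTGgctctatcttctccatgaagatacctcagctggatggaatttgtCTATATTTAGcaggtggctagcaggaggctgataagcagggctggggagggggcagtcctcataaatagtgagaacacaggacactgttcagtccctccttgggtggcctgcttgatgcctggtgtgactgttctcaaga
Myom1: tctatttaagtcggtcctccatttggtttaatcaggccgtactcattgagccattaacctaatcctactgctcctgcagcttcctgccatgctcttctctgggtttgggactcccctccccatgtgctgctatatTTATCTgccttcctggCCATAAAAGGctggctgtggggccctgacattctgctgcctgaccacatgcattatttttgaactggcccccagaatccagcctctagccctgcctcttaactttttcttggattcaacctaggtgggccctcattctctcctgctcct
Ldb3: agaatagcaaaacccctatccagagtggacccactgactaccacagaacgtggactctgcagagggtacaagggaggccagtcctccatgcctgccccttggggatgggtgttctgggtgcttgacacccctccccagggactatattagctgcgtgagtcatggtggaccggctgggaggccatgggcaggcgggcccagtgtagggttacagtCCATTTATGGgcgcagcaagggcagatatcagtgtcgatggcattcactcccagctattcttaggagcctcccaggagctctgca
A MEF2 site was present in 2 of the 12 windows, against 3.19% of all 32851 windows in the table. A CArG box, the site of serum response factor, was present in 4 of 12, against 1.63%, and 2 of these 4 are overlapping Ldb3 windows that share 1 match. NKX sites were found in 3 of 12 (46.4% of all windows) and GATA sites in 3 of 12 (11.2%). An E-box, CANNTG, which is not marked, was found in 9 of 12 (72.3%). These are letter matches and not measured binding.

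Ttn, the titin gene, lies on chromosome 2 and spans 279 kb. Its main probe set gave log2 signals of 14.13, 13.71, 13.54, 13.44 and 13.27 in the knockout pools, against 14.25, 14.68, 14.88, 14.06 and 13.80 in the control pools. Knockout pool 1 lay above 2 of the control pools, and the other 4 lay below all of them. The means were 13.62 ± 0.33 in knockout hearts and 14.33 ± 0.44 in control hearts (SD, n = 5 each). The log2 change of Ttn was -0.71 (SE 0.22, 95% interval -1.22 to -0.21), a signal 39.1% lower, which missed the threshold in limma (adjusted p = 0.124).

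The 6 Ttn probe sets did not give 1 picture. Probe set 1427446_s_at read 12.19, 12.46, 11.77, 12.15 and 12.17 in the knockout pools and 13.13, 13.43, 13.93, 12.73 and 12.65 in the control pools. Here the genotypes were apart, and the log2 change of -1.02 (SE 0.24) had an adjusted p of 0.0638 in the limma fit over 34945 probe sets. Probe set 1431928_at read 5.04, 5.02, 5.31, 5.11 and 5.20 in knockout pools, against 5.96, 6.23, 6.48, 5.70 and 5.10 in control pools. Its log2 change was -0.76 (SE 0.22, limma adjusted p = 0.115), and control pool 5 lay among the knockout pools.

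A pair of further Ttn probe sets varied widely among pools of the same genotype. Probe set 1444083_at read 9.28, 7.78, 8.34, 7.53 and 6.26 in the knockout pools and 8.26, 9.64, 9.54, 8.23 and 7.41 in the control pools. Knockout pool 1 was near the highest control pools and knockout pool 5 was the lowest of all 10, so that the log2 change of -0.78 had an SE of 0.60 (limma adjusted p = 0.482). Probe set 1444638_at was also highest in pool 1 and lowest in pool 5 among the knockout pools, between 6.91 and 9.05, with control pools between 7.91 and 9.22. Its log2 change was -0.50 (SE 0.40, limma adjusted p = 0.50). The sixth, 1446450_at, lay between 2.98 and 3.25 in knockout pools and 3.07 and 3.40 in control pools, below the overall array median of 3.69.

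**Figure D2:**
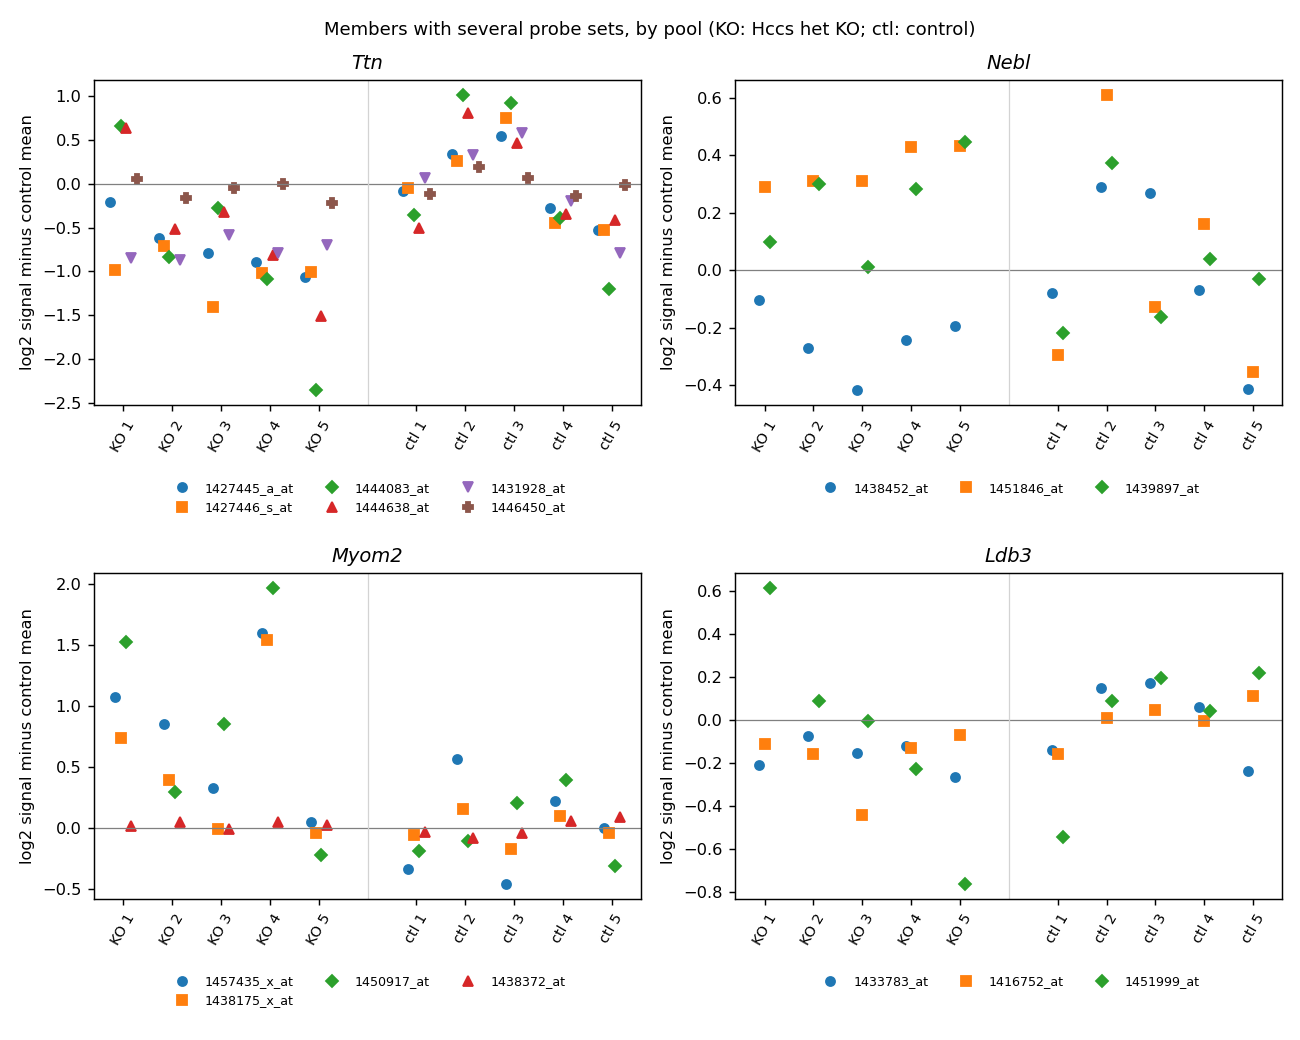
Log2 signal minus the control mean of the same probe set, for the 4 genes with several probe sets, in the 5 Hccs het KO pools (left) and the 5 control pools (right), 1 marker per probe set and pool. For Ttn, probe sets 1444083_at and 1444638_at are high in knockout pool 1 and low in knockout pool 5, and for Nebl 1438452_at lies below the other probe sets in every knockout pool.

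Mybpc3 encodes cardiac myosin-binding protein C, which sits on the thick filament and tunes cross-bridge cycling. Its 1 probe set read 13.54, 13.41, 13.08, 13.41 and 13.46 in the knockout pools, against 13.52, 13.80, 13.85, 13.59 and 13.75 in the control pools. Knockout pool 1 lay just above control pool 1, and the other knockout pools lay below every control pool. The log2 change of Mybpc3 was -0.32 (SE 0.094, 95% interval -0.53 to -0.11), a signal 19.9% lower, with a limma adjusted p of 0.103.

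Myom1, on chromosome 17, encodes myomesin 1, which cross-links myosin filaments at the M-band and binds titin there. Its probe set read 11.87, 11.97, 11.67, 11.94 and 11.96 in the knockout pools and 12.31, 12.51, 12.54, 12.30 and 12.38 in the control pools. Every knockout pool was below every control pool. Myom1 fell to 11.88 ± 0.13 in knockout hearts, against 12.41 ± 0.11 in control hearts (SD, n = 5 each). The log2 change was -0.52 (SE 0.073, 95% interval -0.68 to -0.36), a signal 30.4% lower, with a limma adjusted p of 0.0156. The call was kept in all 10 fits that left out 1 pool, where the adjusted p lay between 0.0114 and 0.0415.

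Myom2 encodes M-protein, the related M-band cross-linker that is known from fast skeletal fibres and adult heart. Its main probe set read 8.74, 8.52, 7.996, 9.26 and 7.71 in the knockout pools, against 7.33, 8.24, 7.21, 7.89 and 7.66 in the control pools. The highest values were in knockout pools 4, 1 and 2, and the genotypes overlapped. Myom2 averaged 8.45 ± 0.61 in knockout hearts and 7.67 ± 0.42 in control hearts (SD, n = 5 each). The log2 change was 0.78 (SE 0.30, 95% interval 0.11 to 1.45), a ratio of 1.72, and the limma adjusted p was 0.188.

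A further pair of Myom2 probe sets had knockout pools 4 and 1 highest as well. Probe set 1450917_at read 5.36, 4.13, 4.69, 5.80 and 3.62 in the knockout pools and 3.64, 3.73, 4.04, 4.23 and 3.53 in the control pools, a log2 change of 0.89 (limma adjusted p = 0.236). Probe set 1438175_x_at lay between 6.43 and 8.01 in knockout pools and between 6.31 and 6.63 in control pools, a log2 change of 0.53 (limma adjusted p = 0.307). The remaining 1438372_at stayed between 2.56 and 2.62 in knockout pools and between 2.48 and 2.66 in control pools, below the overall array median. Myom1 minus Myom2 within the same array averaged 3.44 ± 0.59 in knockout pools and 4.74 ± 0.42 in control pools (SD, n = 5 each), and the genotypes did not overlap. That pair was chosen after its values were seen, and the difference of -1.30 on the log2 scale was not tested.

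Actn2 encodes sarcomeric alpha-actinin, which cross-links actin filaments in the Z-disc. Its probe set read 13.07, 13.13, 12.75, 12.94 and 12.99 in the knockout pools and 13.20, 13.39, 13.60, 13.29 and 13.22 in the control pools. All knockout pools lay below all control pools, though knockout pool 2 and control pool 1 were close. The log2 change of Actn2 was -0.37 (SE 0.092, 95% interval -0.57 to -0.16), a signal 22.4% lower, and the limma adjusted p of 0.0683 missed the threshold. Actn2 passed in 3 of 22 alternative fits and in none of the 10 that left out 1 pool, with adjusted p between 0.0362 and 0.176 over the 22.

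Ldb3 encodes the PDZ and LIM domain protein ZASP, also called Cypher, which binds alpha-actinin. Its main probe set read 13.01, 13.14, 13.06, 13.09 and 12.95 in the knockout pools and 13.07, 13.36, 13.39, 13.27 and 12.98 in the control pools. Control pools 1 and 5 lay among the knockout pools. The log2 change was -0.16 (SE 0.083, 95% interval -0.35 to 0.021, limma adjusted p = 0.292). Probe set 1416752_at had a log2 change of -0.18 (limma adjusted p = 0.225). Probe set 1451999_at spread from 8.14 to 9.51 in knockout pools and from 8.35 to 9.12 in control pools, with a log2 change of -0.058 (limma adjusted p = 0.908).

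Tcap encodes telethonin, which joins the ends of titin molecules in the Z-disc. It read 10.27, 10.35, 9.95, 10.35 and 10.02 in the knockout pools, against 10.46, 10.76, 10.34, 10.65 and 10.74 in the control pools. Control pool 3 lay just below the highest knockout pools, and the other control pools lay above all knockout pools. The log2 change of Tcap was -0.40 (SE 0.11, 95% interval -0.65 to -0.16), a signal 24.3% lower (limma adjusted p = 0.0861).

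Csrp3 encodes muscle LIM protein, a Z-disc and nuclear protein linked to the response to stretch. Its probe set read 14.32, 14.25, 13.93, 14.31 and 14.44 in the knockout pools and 14.29, 14.48, 14.24, 14.48 and 14.43 in the control pools. The genotypes overlapped over most of their range. The log2 change was -0.13 (SE 0.093, 95% interval -0.34 to 0.074, limma adjusted p = 0.438).

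Nebl encodes nebulette, the cardiac member of the nebulin family at the Z-disc, and spans 392 kb on chromosome 2. Its main probe set 1438452_at read 12.48, 12.31, 12.16, 12.34 and 12.39 in the knockout pools and 12.50, 12.87, 12.85, 12.51 and 12.17 in the control pools. Control pool 5 lay at the bottom of the knockout range, and the log2 change was -0.25 (SE 0.13, 95% interval -0.53 to 0.043, limma adjusted p = 0.310).

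Both other Nebl probe sets had positive log2 changes. Probe set 1451846_at read 10.02, 10.04, 10.04, 10.16 and 10.16 in the knockout pools and 9.44, 10.34, 9.60, 9.89 and 9.38 in the control pools. Apart from control pool 2, the knockout pools were higher, and the log2 change was 0.35 (SE 0.17, limma adjusted p = 0.266). Probe set 1439897_at differed by 0.23 on the log2 scale (SE 0.12, limma adjusted p = 0.315). Within an array, 1438452_at minus 1451846_at averaged 2.25 ± 0.13 in knockout pools and 2.85 ± 0.30 in control pools (SD, n = 5 each), and the genotypes did not overlap on this difference. Which Nebl transcripts each probe set reads was not examined, and this pair was also chosen after its values were seen, with no test.

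**Figure D3:**
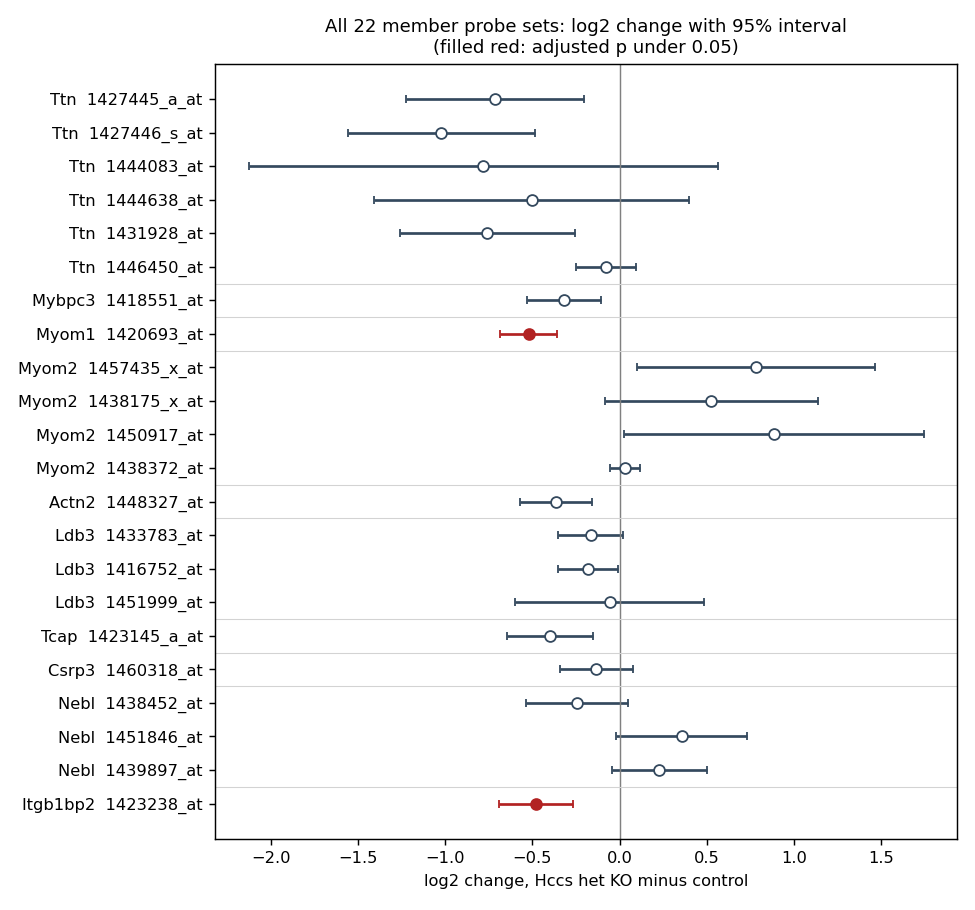
Log2 change, Hccs het KO minus control, of all 22 probe sets of the 10 genes, with 95% intervals. The changes of 16 probe sets are negative and those of 6 are positive, the positive ones being probe sets of Myom2 and Nebl.

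Itgb1bp2, on the X chromosome like Hccs, encodes melusin, which binds the cytoplasmic tail of integrin beta 1 near the Z-disc and is known in mice for the heart's response to load. It read 9.35, 9.43, 9.15, 9.35 and 9.64 in the knockout pools and 9.81, 10.02, 9.82, 9.68 and 9.98 in the control pools. The genotypes were apart, with knockout pool 5 just below control pool 4. Itgb1bp2 fell to 9.38 ± 0.18 in knockout hearts, against 9.86 ± 0.14 in control hearts (SD, n = 5 each), a log2 change of -0.48 (SE 0.094, 95% interval -0.69 to -0.27), with a limma adjusted p of 0.0349. The call was kept in 3 of the 10 fits that left out 1 pool, those without knockout pool 1, knockout pool 5 or control pool 4, and the adjusted p lay between 0.0320 and 0.0808 over the 10.

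Read by probe set, 2 of the 22 were called lower, those of Myom1 (limma adjusted p = 0.0179) and Itgb1bp2 (limma adjusted p = 0.0426), and none higher, where 0.481% of all probe sets were called lower and 1.23% higher. At an unadjusted limma p under 0.05, 9 were lower and 2 higher, against 6.48% and 13.8% of all probe sets. The genotypes were apart in 4 probe sets, all lower in the knockout, against 1.53% of all probe sets apart in that direction and 4.05% in the other.

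The pools of a genotype were not alike. Knockout pool 3 was the lowest knockout pool for 7 of the 10 genes, and knockout pool 5 was the lowest for Ttn, Myom2 and Ldb3. Control pools 2 and 3 were the highest control pools for 5 genes each. Deviations from the genotype mean, over the 10 arrays and as a description only since all genes share the same arrays, ran together for Myom1 with Mybpc3 (Pearson's r = 0.86, Spearman's rho = 0.70), for Myom1 with Actn2 (0.82 and 0.87) and for Ttn with Nebl (0.81 and 0.64). Those of Myom2 ran with those of Tcap (0.85 and 0.81), and those of Ttn with Tcap did not (-0.10 and -0.042).

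**Figure D4:**
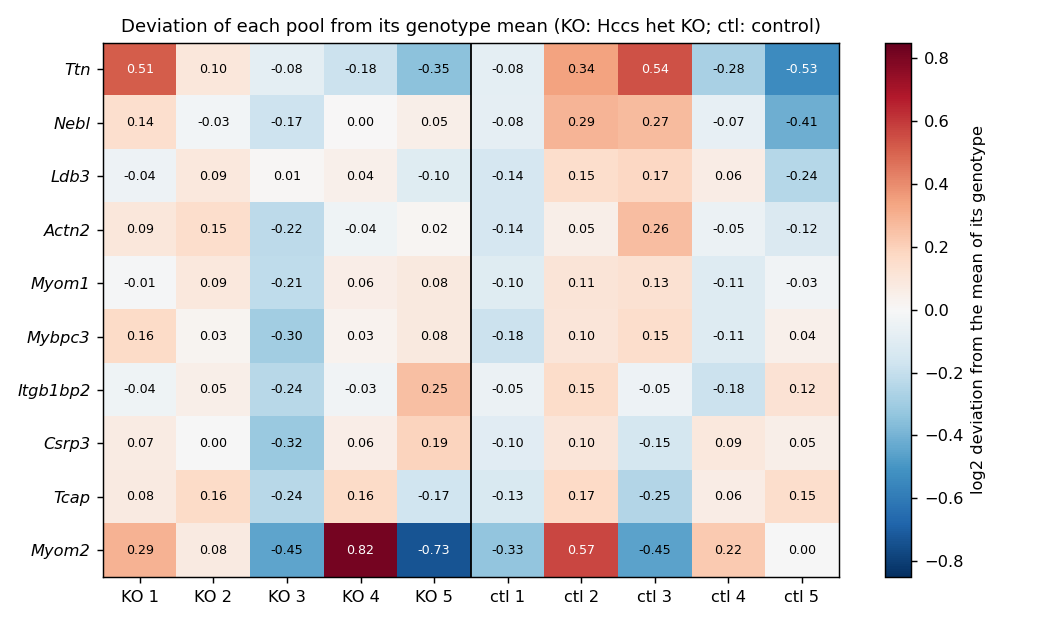
Deviation of each gene's main probe set from its genotype mean, on the log2 scale, in the 5 Hccs het KO pools (left) and the 5 control pools (right). Ttn deviates by 0.51 in knockout pool 1 and by -0.53 in control pool 5, and knockout pool 3 is below the mean for most genes.

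Among 9095 genes above the median level, those whose deviations were most like those of Ttn over the 10 arrays were Tlcd3a (r = 0.96, rho = 0.96), Plcd3 (0.94 and 0.93), Tacc2 (0.93 and 0.92), Airn (0.93 and 0.89) and Mical3 (0.91 and 0.85). Their log2 changes between genotypes were -0.039 for Tlcd3a, 0.047 for Plcd3, -0.33 for Tacc2, -0.45 for Airn and -0.35 for Mical3. None of these 5 changes passed the threshold in limma, with adjusted p between 0.102 for Mical3 and 0.768 for Plcd3. The 5 genes were picked as the highest correlations of that search over only 10 arrays. Whether such values exceed what a search of this size gives by chance was not tested.

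Other genes of the same structures were counted from lists of known sarcomere genes, beside 0.945% of all genes called lower and 1.63% called higher. Of 37 other Z-disc genes, 31 had negative log2 changes. The genotypes did not overlap for 3 of them, all lower, against 1.92% of all genes. At an unadjusted limma p under 0.05, 16 were lower and 1 higher, against 7.48% and 13.2% of all genes. The median log2 change of these Z-disc genes was -0.15, and after adjustment 1 fell and none rose. This was Flnc, filamin C, a cross-linker of actin at the Z-disc and the membrane, at 9.30 ± 0.21 in knockout hearts and 9.94 ± 0.23 in control hearts (SD, n = 5 each), lower by a log2 difference of -0.65 (SE 0.13, limma adjusted p = 0.0373). Ankrd1, a titin-binding stress protein with the highest signal on that list, differed by 0.099 on the log2 scale (SE 0.12, limma adjusted p = 0.650). Of 24 other M-band and thick-filament genes, 15 had negative log2 changes, with a median of -0.10. At an unadjusted limma p under 0.05, 6 were lower and 2 higher, and the genotypes were apart for 3 lower and 1 higher. After adjustment 2 fell and none rose.

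The pair that fell were Klhl41, a kelch protein of the sarcomere, and Unc45b, the chaperone that folds muscle myosin. Klhl41 read 7.55, 8.05, 7.53, 7.45 and 7.26 in the knockout pools and 8.37, 8.45, 8.15, 8.14 and 8.51 in the control pools, a difference of -0.76 on that scale (SE 0.14, limma adjusted p = 0.0292). Unc45b fell by 0.26 on the log2 scale (SE 0.052, limma adjusted p = 0.0349). The genotypes did not overlap for either gene. When 1 pool was left out in turn, Flnc passed in 1 of 10 fits, with adjusted p between 0.0197 and 0.0737, and Klhl41 and Unc45b each passed in 3 of 10. Smpx, a small muscle protein with the highest signal on that list, differed by -0.069 on the log2 scale (SE 0.081, limma adjusted p = 0.650).

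Over all 18193 genes, 7184 had negative log2 changes, 0.945% were called lower, and 1.92% were lower without overlap of the genotypes. All 13 contractile filament genes had negative log2 changes, with a median of -0.21. At an unadjusted limma p under 0.05, 12 were lower, against 7.48% of all genes. The genotypes did not overlap for 6, all lower. After adjustment 4 fell, all without overlap of the genotypes. These were Myh7, the slow myosin heavy chain (-0.47), Tnnc1, cardiac troponin C (-0.30), Tnni1, slow troponin I (-0.30), and Myl2, the ventricular myosin light chain (-0.23), with limma adjusted p between 0.0221 and 0.0296. Of the 10 fits that left out 1 pool, Tnnc1 passed in 7, Myh7 in 4, Myl2 in 3 and Tnni1 in 2. Actc1, cardiac actin, had a log2 change of -0.13 and missed the threshold (limma adjusted p = 0.0726). Of 14 cardiac transcription factors, 5 were lower and 1 higher at an unadjusted limma p under 0.05. After adjustment 2 of the 14 fell, and the median of the list was -0.14. Mef2a, a factor of the MEF2 site, read 11.92 to 12.13 in knockout pools and 12.19 to 12.47 in control pools, a log2 change of -0.34 (limma adjusted p = 0.0333), and passed in 2 of the 10 fits. The mean of the Mef2a probe sets gave -0.20 (limma adjusted p = 0.282) and the most variable one -1.11 (limma adjusted p = 0.0260). Nkx2-5, a factor of the NKX site, had a log2 change of -0.78 (limma adjusted p = 0.0108) and passed in all 10, but missed the threshold with an 18S rRNA control signal as a covariate (0.0534) and without the arrays numbered 3 (0.0523). Tbx20, a T-box factor with the highest signal among those not called, had a log2 change of -0.14 (limma adjusted p = 0.341). Srf, serum response factor of the CArG box, was not called, with a log2 change of -0.037 (limma adjusted p = 0.841). Of further MEF2 factors, Mef2c (-0.18, limma adjusted p = 0.582) and Mef2d (-0.33, limma adjusted p = 0.0581) missed the threshold.

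**Figure D5:**
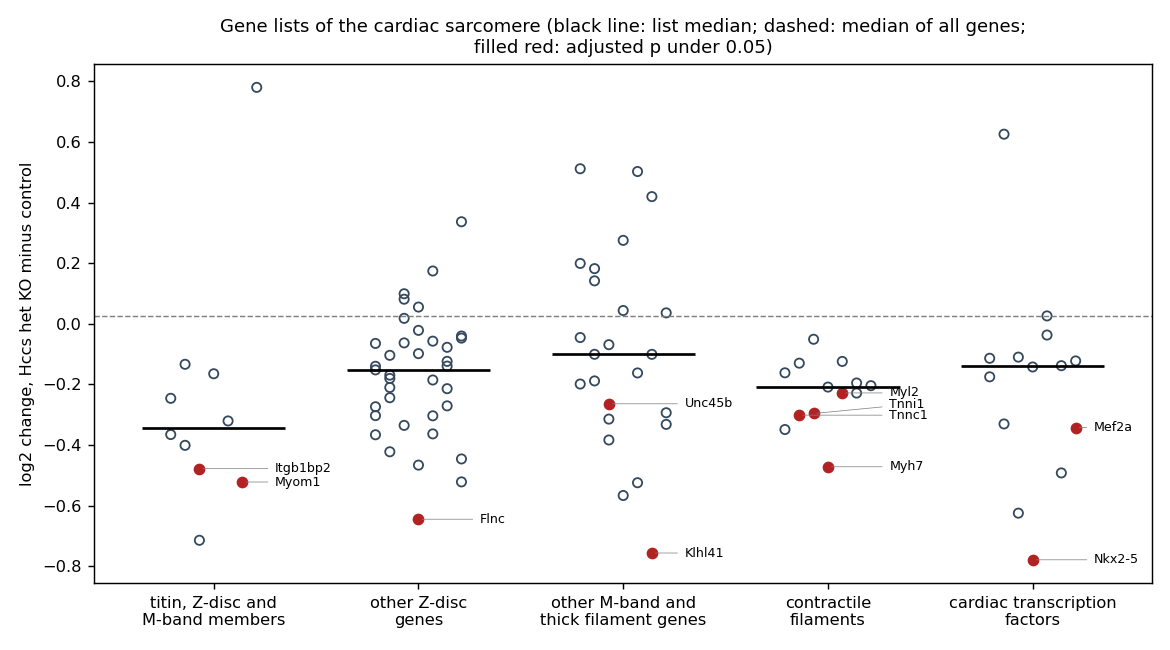
Log2 change, Hccs het KO minus control, of the 10 genes and of 4 lists of other sarcomere and cardiac genes, 1 circle per gene, with list medians as black lines and the median of all genes dashed. Filled circles mark the genes past the threshold, 2 of the 10 members, 1 of 37, 2 of 24, 4 of 13 and 2 of 14.

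Hccs itself fell in the hearts labelled knockout, with log2 signals of 10.39 to 10.90 in knockout pools, against 11.11 to 11.31 in control pools (log2 change -0.55, limma adjusted p = 0.0225), and it passed in 6 of the 10 fits that left out 1 pool. Of 6 cardiomyocyte markers none passed the threshold, 5 had a negative log2 change and 1 a positive one. At an unadjusted limma p under 0.05, 3 of them were lower, against 7.48% of all genes. Their mean level was 14.47 to 14.61 in knockout pools and 14.60 to 14.85 in control pools. Myom1 minus the mean of those markers averaged -2.68 ± 0.10 in knockout pools and -2.33 ± 0.069 in control pools (SD, n = 5 each). For Itgb1bp2 the same difference averaged -5.18 ± 0.15 in knockout pools and -4.88 ± 0.17 in control pools (SD, n = 5 each). The genotypes overlapped on the Itgb1bp2 difference and did not on that of Myom1. Both comparisons were chosen after the calls and not tested. Of 5 epicardial markers 1 rose, Tcf21 (log2 change 0.61, limma adjusted p = 0.0376; past the threshold in 3 of the 10 fits without 1 pool), and the mean of the Tcf21 probe sets gave 0.27 (limma adjusted p = 0.0931). None of the smooth muscle, endothelial, fibroblast, macrophage or erythroid markers was called. At an unadjusted limma p under 0.05, 4 of 7 endothelial, 2 of 4 smooth muscle, 2 of 5 erythroid and 1 of 6 macrophage markers were lower. None of the 6 fibroblast markers was, and none on these lists was higher. The lower unadjusted values were thus not particular to the cardiomyocyte markers.

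Several members are also made in skeletal muscle, and signs of it differed between pools. None of 7 skeletal markers was called, 3 were below the array median, and the list's mean level was 4.44 to 5.56 in knockout pools and 4.97 to 5.999 in control pools. Of the 7, 3 had a negative log2 change and 4 a positive one. Ckm, muscle creatine kinase, which the heart also makes, lay between 8.73 and 11.17 in knockout pools and between 11.33 and 11.85 in control pools. Its log2 change was -1.16 (SE 0.41, limma adjusted p = 0.156), with every knockout pool below every control pool. Myh3, the embryonic myosin heavy chain, was singled out after its values were seen, for its spread, and read 5.94, 8.01, 6.30, 9.06 and 4.86 in the knockout pools and 9.16, 6.59, 10.84, 9.25 and 6.30 in the control pools. Knockout pool 4 was highest among the knockout pools for both Myh3 and Myom2, while control pool 3 had the highest Myh3 and the lowest Myom2 of the control pools. Myog, the skeletal muscle regulator myogenin, was highest in the same pools as Myh3, at 5.03 in knockout pool 4 and 7.02 in control pool 3. The part of skeletal muscle RNA in these results was not tested.

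The signal of the 18S rRNA control probe set toward the 5' end was 8.17 ± 0.35 in knockout pools and 10.05 ± 1.25 in control pools (SD, n = 5 each; exact permutation test, two-sided, p = 0.0238, adjusted p = 0.119 over 5 array measures). Control pool 3, at 8.06, lay among the knockout pools. With this signal as a covariate Myom1 remained called at -0.63 (limma adjusted p = 0.0376) and Itgb1bp2 missed the threshold at -0.43 (limma adjusted p = 0.170). Ttn probe sets 1427446_s_at (-1.68, limma adjusted p = 0.0298) and 1431928_at (-1.34, limma adjusted p = 0.0434) passed with the covariate. The main probe sets that moved by over 1.5 times gave -1.11 for Ttn, -0.57 for Actn2, -0.33 for Ldb3, -0.51 for Nebl, -0.20 for Tcap and -0.044 for Csrp3, none of them past the threshold. The 18S probe set toward the 3' end read 8.38 ± 0.34 in knockout pools and 9.16 ± 1.25 in control pools (SD, n = 5 each). In the same permutation test its p was 0.222 (adjusted p = 0.278). The 3' minus 5' differences of the actin and Gapdh controls had adjusted p of 0.278 and 0.238 in that test, and the hybridisation controls 0.548. The part of RNA preparation in the changes was not tested otherwise.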

How the data were processed

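Total RNA from 10 pools of hearts was measured on 10 arrays. The deposited table holds 45101 probe sets as log2 signal, which the authors made with RMA and Partek, per the submitters' processing notes; the options of that step are not given here, and the array medians lie between 3.65 and 3.76. No arrays were identical. Values were used as deposited, after removal of 64 array controls. Probe sets were named through the platform annotation: 34945 had 1 symbol, 932 had several and 9160 had none. Each of the 18193 genes was represented by its brightest probe set, judged on the mean of the 10 arrays. All 10 members matched RefSeq by symbol.

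Knockout and control were compared in a linear model with moderated variance (limma 3.58.1 under R 4.3.3, no covariates), with Benjamini-Hochberg adjustment and a threshold of 0.05, once over genes and once over probe sets. The fit was tested on simulated data. With 5 against 5 pools the smallest exact two-sided permutation p is 0.00794. The precision is limited by the number of arrays. The labels call the pools biological replicates. Replicate numbers did not pair the arrays: correlations of deviations between arrays with the same number lay between -0.091 and 0.077. The members and lists were chosen with earlier results of these data known. Genes named from other lists are those past the threshold and the one with the highest signal among the rest, and those most like Ttn by Pearson's r of deviations. Myh3, Myog, Ckm, Speg, Trim54, Hspb7, Ryr2, Srf, Mef2c and Mef2d were named after their values were seen. A few listed genes were not analysed here. Motifs were searched as letters on both strands of the RefSeq windows. Alternatives covered normalization, filters, probe set choice, variance models, a covariate, the replicate block and left-out pools.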

Additional observations from a re-analysis of the deposited data

Results flagged for a closer look

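In 86 groups of 5 values (a probe set or an array measure in 1 genotype), 5 held a pool that stood far from the other 4 by Dixon's test. Chance sets apart about 1 in 20 groups. That rate does not apply to genes named after their values were seen, among them Ckm and Myog. Of the 5 groups, 2 were probe sets of Ldb3. Ldb3 probe set 1416752_at was low in knockout pool 3, at 10.37, with the other knockout pools between 10.66 and 10.74. Ldb3 probe set 1451999_at was low in control pool 1, at 8.35, with the other control pools between 8.94 and 9.12.

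The other 3 lay outside the 10 genes. Ckm, muscle creatine kinase, was low in knockout pool 5, at 8.73, with the other knockout pools between 10.49 and 11.17. Myog, the skeletal muscle regulator myogenin, was high in control pool 3, at 7.02, with the other control pools between 3.41 and 4.33. Flnc was high in control pool 3, at 10.34, with the other control pools between 9.76 and 9.91.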

How the results depend on the processing

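The counts of calls moved with the fit, and the cause was not tested. With the replicate block, 36 genes were called in place of 469, with 0 members, 0 member probe sets and 0 of the other Z-disc and M-band genes, and Hccs missed the threshold (limma adjusted p = 0.0735); the block leaves each change as it was, for Hccs -0.55. None of the 13 genes called and named in the text passed with the block (limma adjusted p 0.0571 to 0.124), 4 of 13 passed with the 18S covariate and 1 of 13, Myom1, without the arrays numbered 3. A threshold of 0.01 left 14 genes and 0 in each of those groups, with Hccs at -0.55 not called. With only genes above the median level tested, 759 genes were called, with 4 members and 9 other Z-disc and M-band genes in place of 3. Those other genes numbered 7 above the lower quartile, 7 with a trended robust variance and 8 with array weights. Array weights called 945 genes and 4 member probe sets, and median centring called 1 member probe set. The 18S signal as covariate called 296 genes and 1 member, with Hccs at -0.50 not called. Without the arrays numbered 3, 30 genes, 1 member, 0 member probe sets and 0 other genes were called, with Hccs at -0.59 not called.

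Leaving out 1 pool gave 105 (without knockout pool 4) to 1042 genes (without knockout pool 1), 1 to 2 members, 1 to 2 member probe sets and 0 to 6 other Z-disc and M-band genes. Hccs ranged between -0.60 and -0.48 and the 18S difference between -2.38 and -1.53. Of these other genes, Flnc was called in 1 of the 10 fits, and Klhl41 and Unc45b in 3 each. Myom1 missed the threshold only with the block (limma adjusted p = 0.0735) and at 0.01, among 22 alternatives, and Itgb1bp2 in 11 of 22.

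Signs turned for Nebl as the mean of its probe sets (0.11) or its most variable one (0.35), for Plcd3 with the 18S covariate (-0.11) or without control pool 5 (-0.011, range -0.011 to 0.093 over left-out pools), for Ldb3 1451999_at with the covariate (0.077) or without knockout pool 5 (0.12, range -0.23 to 0.12), and for Tlcd3a without the arrays numbered 3 (0.0031). Every other named change that was refitted kept its sign in all alternatives run. Ckm, Myh3, Myog, Hspb7, Ryr2, Srf, Mef2c and Mef2d were not refitted. The median change of all genes stayed between 0.0060 and 0.046.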

Other observations

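Some genes of the titin and M-band list had positive log2 changes near the threshold, and they were picked after their values were seen. Speg, a kinase of striated muscle in the myosin light chain kinase family, read 10.46, 11.01, 11.12, 10.94 and 11.15 in the knockout pools and 10.33, 10.47, 10.50, 10.51 and 10.36 in the control pools (log2 change 0.50, SE 0.12, limma adjusted p = 0.0609). Only knockout pool 1 lay within the control range. Trim54, a ubiquitin ligase of the muscle RING finger family, read 7.26, 7.28, 7.07, 7.37 and 7.82 in the knockout pools and 6.83, 6.69, 6.85, 6.92 and 6.96 in the control pools (log2 change 0.51, SE 0.12, limma adjusted p = 0.0601). The genotypes did not overlap for Trim54. As the mean of its probe sets, Speg had a log2 change of 0.032.

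Knockout pool 5 was the lowest of all 10 pools in several widely varying probe sets. These were Ttn 1444083_at (6.26), Ldb3 1451999_at (8.14), Ckm (8.73) and Hspb7, a small heat shock protein of heart and muscle, at 11.66. Hspb7 lay between 13.02 and 13.86 in the other knockout pools and between 12.62 and 13.98 in the control pools. In control pool 1 the same Hspb7 and Ldb3 probe sets were the lowest of the control pools, and the Ttn and Ckm probe sets were not.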
